A study of Mus musculus with 9 samples.

Results

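Cells that engulf microbes and debris make oxidants on purpose and must survive them. The phagocyte NADPH oxidase is built around a membrane pair, the catalytic subunit encoded by Cybb and its partner encoded by Cyba, which passes electrons from NADPH to oxygen once cytosolic subunits such as those encoded by Ncf1 and Ncf4 join it, and microglia and macrophages are among the cells known for it. The protective side is driven largely by the transcription factor NRF2, encoded by Nfe2l2, which KEAP1 holds at low levels until oxidants or electrophiles release it, and which then binds antioxidant response elements together with small MAF proteins, while BACH1 competes for the same elements. The members described here were the genes of the count table whose identifiers map to 4 oxidase symbols (Cybb, Cyba, Ncf1 and Ncf4) and 5 protective symbols (Hmox1, Nqo1, Gclm, Txnrd1 and Srxn1), 9 of the 53801 genes listed. All 9 passed the filter on low counts and were among the 12538 protein-coding genes tested.

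RNA came from CD11b+ cells, sorted by flow cytometry out of brain hemispheres with a tumor. The mice were male C57BL/6J, 10 to 12 weeks old when the study began, and carried GL261 glioma cells expressing luciferase and tdTomato. CTR mice (2 libraries) received vehicle, OAT-1746 mice (2 libraries) an oral inhibitor of both arginases at 50 mg/kg, anti-PD-1 mice (2 libraries) an antibody to the checkpoint receptor PD-1 at 2.5 mg/kg, and COMB mice (3 libraries) both agents. The methods place collection at day 28 after implantation and a legend at day 21. The replicates are biological replicates by the methods, and anti-PD-1 replicate 2, whose treatment label names another antibody target, was grouped by its title. Libraries held 13048075 to 18796479 counted pairs. Levels are given as CPM, the counts of a gene scaled to a common library total after TMM normalization. As a check of the sort, Itgam, which encodes CD11b, lay between 294 and 446 CPM in the 9 libraries, the leukocyte gene Ptprc between 379 and 759.5 CPM, and Aif1, a gene of microglia and macrophages, between 154 and 399 CPM. These genes differed between groups. Itgam was highest in the OAT-1746 libraries (445 and 446 CPM). Ptprc was lower in OAT-1746 (554 and 379 CPM) and COMB (438 to 553 CPM) than in CTR (708 and 676 CPM), and anti-PD-1 had a library on either side of CTR. Aif1 was lowest in the OAT-1746 libraries (228 and 154 CPM) and rose by 0.81 on the log2 scale in COMB against OAT-1746 (SE 0.24, edgeR adjusted p = 0.0477). The part of these differences in the results was not tested. OAT-1746 replicate 2 stood apart, with a Pearson's r of log2 CPM across genes of at most 0.956 with any other library, whereas each of the remaining 8 had a library at 0.976 or above. Genes are not independent replicates, so r is a description.

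Per kilobase of exon, the oxidase pair led the members in CTR. Cyba had 755 ± 4.36 CPM per kilobase (SD, n = 2), Cybb 299.8 ± 47.5 and Ncf1 156 ± 9.30. Hmox1 followed at 122 ± 3.25 and Ncf4 at 103 ± 1.00 CPM per kilobase. The other protective genes were far lower, with Txnrd1 at 13.9 ± 0.847, Srxn1 at 7.77 ± 1.78, Gclm at 4.58 ± 0.239 and Nqo1 at 0.286 ± 0.131. The order differed in OAT-1746, where Ncf1 at 168 ± 4.24 CPM per kilobase had a higher mean than Cybb at 107.5 ± 88.1, although the libraries of these genes overlapped. It also differed in anti-PD-1, where Hmox1 at 140.5 ± 48.1 had a higher mean than Ncf1 at 133 ± 16.5, within their spread. In OAT-1746, Srxn1 and Gclm, at 3.63 ± 2.63 and 3.53 ± 0.373, differed by less than their spread.

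**Figure D1:**
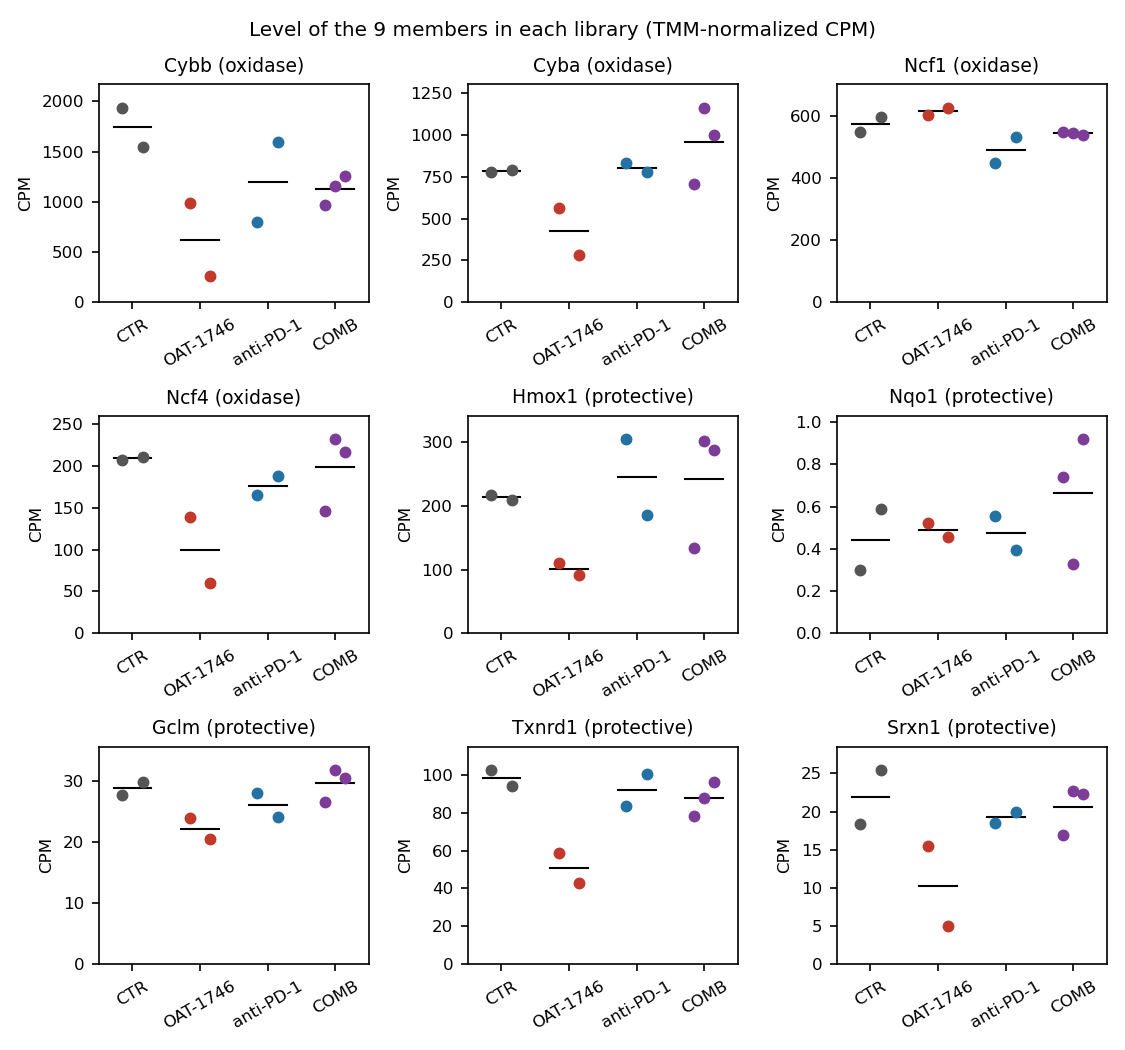
Level of each member in CPM (linear axes from 0, one panel a gene) in the 9 libraries by group, with points for libraries and a line at the group mean. Both OAT-1746 points are under the CTR points for Cybb, Cyba, Ncf4, Hmox1, Gclm, Txnrd1 and Srxn1, whereas Ncf1 stays between 446 and 625 CPM in all libraries and Nqo1 under 1 CPM.

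Cybb, the catalytic subunit, is on chrX:9435252-9487771 (GRCm38, minus strand). It had 1936 and 1546 CPM in CTR, 986.5 and 262 in OAT-1746, 803 and 1596 in anti-PD-1, and 966, 1157 and 1262 in COMB. The CTR and OAT-1746 libraries did not overlap, OAT-1746 replicate 2 was the lowest of all, and the COMB libraries lay below CTR but not wholly above OAT-1746. The log2 fold change between OAT-1746 and CTR was -1.48 (SE 0.54), a level 2.79-fold lower, with an adjusted p of 0.104 in edgeR's quasi-likelihood test and 0.029 in DESeq2. It was -0.81 without OAT-1746 replicate 2 and -2.73 without replicate 1. In bulk samples, fewer cells of a type and less RNA per cell cannot be told apart.

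Cyba, whose product holds the catalytic subunit in the membrane and binds the cytosolic organizer, lies at chr8:122424776-122432930 on the minus strand. Its level was 781 and 788 CPM in CTR, 566 and 280.2 in OAT-1746, 829.7 and 778 in anti-PD-1, and 708, 1162 and 1001 in COMB. The OAT-1746 libraries were below all others. Against CTR the difference was -0.89 on the log2 scale (SE 0.33, edgeR adjusted p = 0.106, DESeq2 adjusted p = 0.0499), or -0.46 without OAT-1746 replicate 2 and -1.49 without replicate 1.

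Ncf4, a cytosolic subunit that binds a membrane phosphoinositide, lies at chr15:78244801-78262580 on the plus strand. It had 207 and 210.2 CPM in CTR, 139 and 59.8 in OAT-1746, 165 and 187 in anti-PD-1, and 146, 232 and 217 in COMB. Here too the OAT-1746 libraries were below all others, with a log2 fold change against CTR of -1.07 (SE 0.36, edgeR adjusted p = 0.0904, DESeq2 adjusted p = 0.0315), or -0.58 without OAT-1746 replicate 2 and -1.81 without replicate 1.

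Ncf1, the organizer that carries the cytosolic subunits to the membrane, had another pattern. This gene of chr5:134220053-134229625 (minus strand) gave 548 and 597 CPM in CTR, 603 and 625 in OAT-1746, 446 and 532 in anti-PD-1, and 546, 544 and 538 in COMB. The OAT-1746 libraries were the highest of the 9, by a small margin, with a log2 fold change against CTR of 0.10 (SE 0.16, edgeR adjusted p = 0.678). Across the 9 libraries its log2 CPM had an SD of 0.14, against 0.85 for Cybb, 0.59 for Cyba and 0.60 for Ncf4.

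On the protective side, Hmox1 encodes heme oxygenase, which breaks heme down to biliverdin, iron and carbon monoxide. It lies at chr8:75093621-75100589 on the plus strand. Its level was 218 and 209.8 CPM in CTR, 111 and 91.4 in OAT-1746, 305 and 186 in anti-PD-1, and 134, 302 and 289 in COMB. The OAT-1746 libraries were again below all others and close to each other, while anti-PD-1 and COMB each held libraries below and above CTR. The log2 fold change between OAT-1746 and CTR was -1.08 (SE 0.37, edgeR adjusted p = 0.0963, DESeq2 adjusted p = 0.0343).

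Txnrd1, the cytosolic thioredoxin reductase that uses NADPH to keep thioredoxin reduced, lies at chr10:82833951-82897712 on the plus strand. It had 103 and 94.1 CPM in CTR, 58.6 and 43.1 in OAT-1746, 83.5 and 100.5 in anti-PD-1, and 78.3, 87.8 and 96.2 in COMB. No library of another group came down to the OAT-1746 level. This member had the smallest adjusted p of the 9 in OAT-1746 against CTR, with a log2 fold change of -0.95 (SE 0.19, edgeR adjusted p = 0.061, DESeq2 adjusted p = 0.0014).

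Srxn1, the sulfiredoxin that repairs overoxidized peroxiredoxins, lies at chr2:152105516-152111376 on the plus strand. It gave 18.4 and 25.5 CPM in CTR, 15.5 and 4.98 in OAT-1746, 18.5 and 19.9 in anti-PD-1, and 16.9, 22.6 and 22.3 in COMB. OAT-1746 replicate 1 was near the lowest libraries of the other groups and replicate 2 far below, and the log2 fold change against CTR was -1.10 (SE 0.42, edgeR adjusted p = 0.117), or -0.49 without OAT-1746 replicate 2 and -2.14 without replicate 1.

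Gclm encodes the modifier subunit of the enzyme that starts glutathione synthesis and lies at chr3:122245557-122270732 on the plus strand. It had 27.8 and 29.9 CPM in CTR, 23.9 and 20.5 in OAT-1746, 27.9 and 24.1 in anti-PD-1, and 26.6, 31.8 and 30.4 in COMB. The OAT-1746 libraries were the lowest, by a narrow margin over an anti-PD-1 library, and the log2 fold change was -0.38 (SE 0.17, edgeR adjusted p = 0.152). Nqo1, a quinone reductase often used as a readout of NRF2, lies at chr8:107388225-107403206 on the minus strand and had only 5 to 13 counts per library, at most 0.922 CPM. Its groups overlapped, and a difference was not detectable at this depth (log2 fold change between OAT-1746 and CTR 0.14, SE 0.68).

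Sequence upstream of the start sites is shown for the members whose promoter window held a match of TGACNNNGC, the core of the antioxidant response element, because most protective members were low together in OAT-1746. RefSeq windows of 250 bases before to 50 after a start (GRCm38.p6) were matched for 7 of the 9 members, 9 windows in all, and Hmox1 and Ncf4 had no window. On both strands, TGACNNNGC was found in 3 of the 9 windows, those of Gclm, Srxn1 and 1 of 3 windows of Txnrd1, and in 12.4% of all 32851 windows. TGANTCA, bound by AP-1, was found in the windows of Cybb and Srxn1 and in 7.81% of all. GAGGAAGT, bound by PU.1, was found in 0 of the 9 windows and in 3.20% of all. The former 2 motifs can overlap each other, and their matches in the members did not. Each line gives 250 bases up to the start, 5′ to 3′, with matches of TGACNNNGC (or its reverse complement) and TGANTCA in capitals. The Gclm stretch is chr3:122245307-122245556, the Txnrd1 stretch chr10:82858956-82859205 and the Srxn1 stretch chr2:152105274-152105523, all on the plus strand.
Gclm: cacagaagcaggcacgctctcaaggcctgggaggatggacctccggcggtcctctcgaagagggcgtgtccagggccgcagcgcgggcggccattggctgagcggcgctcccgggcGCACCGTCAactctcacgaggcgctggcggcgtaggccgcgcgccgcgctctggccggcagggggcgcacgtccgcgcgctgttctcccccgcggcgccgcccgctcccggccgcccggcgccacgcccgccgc
Txnrd1: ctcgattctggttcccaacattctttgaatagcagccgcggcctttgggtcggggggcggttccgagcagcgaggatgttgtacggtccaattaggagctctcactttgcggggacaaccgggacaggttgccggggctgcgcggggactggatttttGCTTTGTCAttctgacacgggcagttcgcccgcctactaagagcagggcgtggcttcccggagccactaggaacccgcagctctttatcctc
Srxn1: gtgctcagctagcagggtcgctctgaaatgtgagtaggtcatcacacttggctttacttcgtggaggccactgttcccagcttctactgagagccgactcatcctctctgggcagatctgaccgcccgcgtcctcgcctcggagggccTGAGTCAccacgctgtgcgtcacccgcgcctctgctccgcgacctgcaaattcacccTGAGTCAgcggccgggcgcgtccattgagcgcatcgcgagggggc
The match in Gclm begins 134 bases and that in Txnrd1 92 bases before the start, both on the minus strand. In Srxn1 the stretch shows 2 copies of TGAGTCA, while its TGACNNNGC match, which is on the minus strand and reads GCTAGGTCA on the plus strand, begins 28 bases past the start and lies outside the stretch. These matches describe the letters of the windows and are not binding sites.

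OAT-1746 against CTR asks what the arginase inhibitor did alone. Across the members, 7 of 9 (3 of 4 oxidase and 4 of 5 protective) were lower in each OAT-1746 library than in either CTR library, whereas 32.1% of all tested genes (4027 of 12538) did so. In edgeR's test 0 of the 9 members were called at an adjusted p under 0.05, as were 0% of all genes (0 of 12538). At an unadjusted p under 0.05 there were 7 members, all lower in OAT-1746, against 32.3% of all genes in either direction and 16.2% lower by that rule. DESeq2 called 5 members, all lower (Cybb, Cyba, Ncf4, Hmox1 and Txnrd1), when it called 17.3% of the genes it tested in either direction and 8.15% lower. The median log2 fold change was -0.98 over the 4 oxidase members and -0.95 over the 5 protective members, and 0.01 over all genes tested. The exceptions were Ncf1 on the oxidase side and Nqo1 on the protective side, both with a small positive value. The size of this depended on the library. Without OAT-1746 replicate 2 the medians were -0.52 and -0.49, and without replicate 1 they were -1.65 and -1.19, when edgeR called 5 members and 3617 of all genes with the lone OAT-1746 library assumed to vary like the other groups. Leaving out COMB replicate 1 gave 1 call, Txnrd1, among 278 genes.

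**Figure D2:**
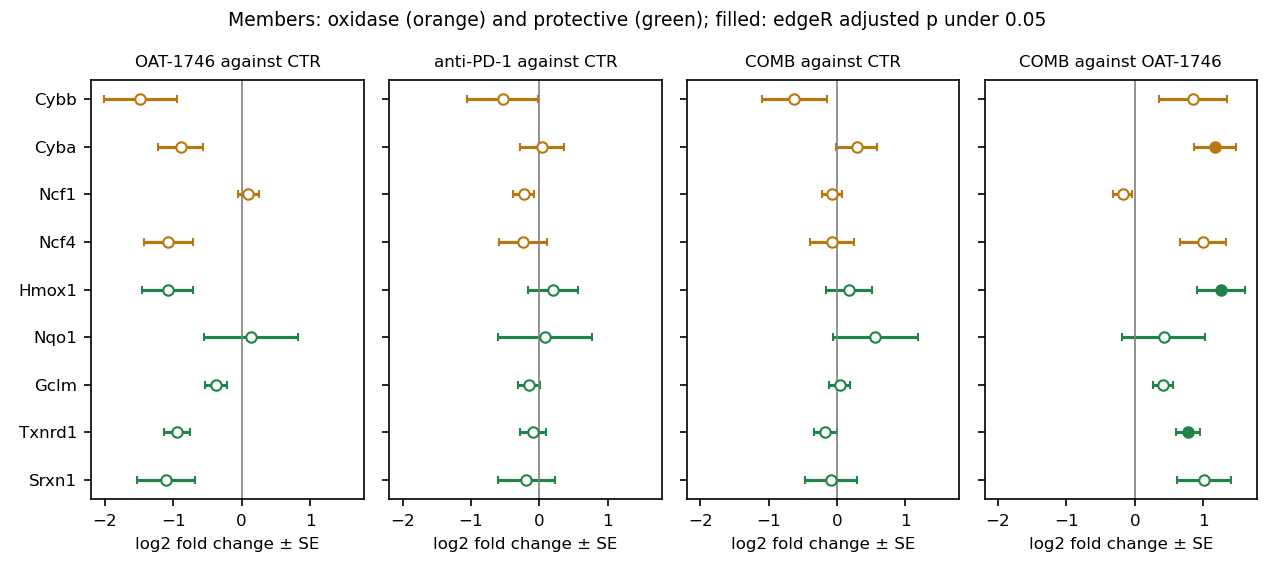
Log2 fold change (x axis) with its standard error for each member (rows) in 4 comparisons, oxidase members in orange and protective members in green, with filled points for an edgeR adjusted p under 0.05. OAT-1746 against CTR has 7 of 9 members below 0 and no filled point, and COMB against OAT-1746 has 8 of 9 above 0 with Cyba, Hmox1 and Txnrd1 filled.

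Anti-PD-1 against CTR, the antibody alone, had smaller median differences, with 6 members lower and 3 higher. With 2 libraries in each group, a shift cannot be shown to be absent. The largest value was that of Cybb, a log2 fold change of -0.54 (SE 0.53, edgeR adjusted p = 0.974). It lay between -1.12 and -0.12 with any 1 library left out. The edgeR test called 0 of the 9 members and 0% of all genes (642 genes passed 0.05 before adjustment and DESeq2 called 0.112% of all genes, with no member among either). The medians were -0.24 over the oxidase members and -0.09 over the protective members, beside 0.02 over all genes. Ncf1 and Ncf4 were lower in each anti-PD-1 library than in CTR, as were 16.9% of all genes. For COMB against CTR, edgeR called 0 of the 9 members and 0% of all genes (825 genes passed 0.05 before adjustment and DESeq2 called 0.279% of all genes, with no member among either). The medians were -0.08 and 0.04, beside -0.00 over all genes. Cybb and Ncf1 had all COMB libraries below both CTR libraries, as did 15.8% of all genes. The log2 fold change of Cybb was -0.63 (SE 0.47, edgeR adjusted p = 0.794) and that of Hmox1 0.18 (SE 0.34, edgeR adjusted p = 0.925), between -0.78 and -0.43 and between -0.016 and 0.44 with any 1 library left out. COMB against anti-PD-1, the inhibitor added to the antibody, had 0 members and 0% of all genes called by edgeR (907 genes passed 0.05 before adjustment and DESeq2 called 0.434% of all genes, with no member among either). Ncf1 was higher in all COMB than in both anti-PD-1 libraries, as were 10% of all genes. The medians there were 0.16 and 0.10, beside -0.01 over all genes. The comparisons with CTR share the same 2 CTR libraries.

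COMB against OAT-1746, the antibody added to the inhibitor, was the comparison in which members passed the test. Cyba rose by a log2 fold change of 1.18 (SE 0.31, edgeR adjusted p = 0.0385), Hmox1 by 1.26 (SE 0.35, adjusted p = 0.0435) and Txnrd1 by 0.78 (SE 0.18, adjusted p = 0.0296), and all 3 COMB libraries were above both OAT-1746 libraries for each. These were 3 of the 9 members, all higher in COMB, while 6.84% of all genes were called higher (858 of 12538) and 15.8% were called in either direction. DESeq2 called 5 members higher, adding Ncf4 and Srxn1, against 13.7% of all genes. All COMB libraries exceeded both OAT-1746 libraries for 6 members, against 25% of all genes. Ncf4 had a log2 fold change of 1.00 (SE 0.33, edgeR adjusted p = 0.067), Srxn1 1.01 (SE 0.40, adjusted p = 0.0989), Cybb 0.85 (SE 0.49, adjusted p = 0.235) and Gclm 0.41 (SE 0.15, adjusted p = 0.0859). With any 1 library left out, Ncf4 lay between 0.53 and 1.73, Srxn1 between 0.43 and 2.05, Cybb between 0.21 and 2.11 and Gclm between 0.32 and 0.53. Ncf1 was the member with the opposite sign, at -0.18 (SE 0.14, adjusted p = 0.395). The medians were 0.93 over the oxidase members and 0.78 over the protective members, beside 0.00 over all genes. This comparison rests on the same OAT-1746 libraries as OAT-1746 against CTR.

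The calls in COMB against OAT-1746 depended on single libraries. The 3 calls became 0 without OAT-1746 replicate 2, COMB replicate 2, COMB replicate 3 or CTR replicate 2, and the calls among all genes went from 1979 to 27, 14, 5 and 808. One call, that of Txnrd1, was left without CTR replicate 1, anti-PD-1 replicate 1 or anti-PD-1 replicate 2 (734, 861 and 927 of all genes). There were 4 calls without COMB replicate 1 and 6 without OAT-1746 replicate 1, when 2923 and 4033 of all genes were called, 0 with the replicate number as a block (2 of all genes), and 0 in a fit of only these groups (30 of all genes), which was added after the data were seen. In each of the 16 alternative analyses the log2 fold changes of Cyba, Hmox1 and Txnrd1 stayed positive, between 0.77 and 1.78 for Cyba, 1.06 and 1.52 for Hmox1, and 0.59 and 1.03 for Txnrd1.

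The interaction asks whether the effect of OAT-1746 differed between mice with and without the antibody. All 9 members had a positive value, as did 6104 of the 12538 genes tested. The values of Ncf1 (0.05, SE 0.21) and Nqo1 (0.34, SE 0.93) were smaller than their SE. The medians were 1.19 over the oxidase members and 0.88 over the protective members, beside -0.02 over all genes. The interaction also rests on the same OAT-1746 and CTR libraries as OAT-1746 against CTR. The edgeR test called 0 members, while 0.359% of all genes (45) were called, and the smallest adjusted p of a member was 0.109, for Txnrd1 (0.88, SE 0.26). At an unadjusted p under 0.05 there were 4 members (Cyba, Ncf4, Gclm and Txnrd1), against 11.8% of all genes with a positive value by that rule. DESeq2 called Txnrd1 (adjusted p = 0.0374), against 9.05% of all genes. Without OAT-1746 replicate 1, edgeR called 5 members and 2734 of all genes in the interaction, and 5 members and 2381 of all genes in the test of any difference. The test of any difference among the 4 groups called 0 members in edgeR (0.191% of all genes, 24 genes; 3 members and 3467 of 12538 genes passed 0.05 before adjustment) and 3 members in DESeq2, Cyba, Hmox1 and Txnrd1, against 17.3% of all genes.

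The balance between the sides can be read in each library. As log2 CPM relative to the CTR mean, the oxidase median was -0.53 in OAT-1746 replicate 1 and -1.64 in replicate 2, and the protective median -0.48 and -1.19. The oxidase median minus the protective median was therefore -0.05 and -0.46 in these libraries. It was -0.30 and 0.01 in anti-PD-1, and -0.00, -0.02 and -0.10 in COMB. The CTR libraries were at 0.05 and -0.05, which mirror each other because both are set against their own mean. The protective median counts Nqo1, with 5 to 13 counts per library, as 1 of its 5 genes, and the difference without Nqo1 was not computed. OAT-1746 replicate 2 and anti-PD-1 replicate 1 leaned furthest to a lower oxidase side, and within each of these groups the other replicate lay near 0.

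**Figure D3:**
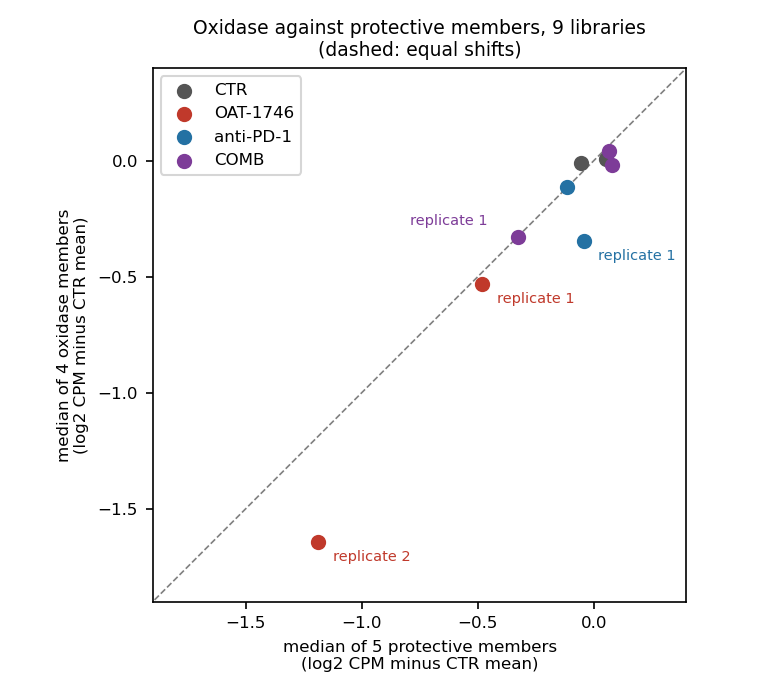
Median of the 4 oxidase members (y axis) against the median of the 5 protective members (x axis) in each library, both as log2 CPM minus the CTR mean, colored by group, with a dashed line where both shifts are equal. The OAT-1746 libraries lie lowest on both axes, at -0.53 and -0.48 for replicate 1 and -1.64 and -1.19 for replicate 2.

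Other parts of the oxidase were closer to their CTR level. Of 16 listed oxidase partners and other NADPH oxidases, 9 were tested, and their median log2 fold change between OAT-1746 and CTR was -0.02. Called by edgeR were 0 of them in that comparison (0% of all genes), and DESeq2 called 0 as well (17.3% of all genes). Before adjustment 3 of the 9 passed 0.05 (32.3% of all genes), and 3 were below CTR in each OAT-1746 library (32.1% of all genes). Rac2, the small GTPase of the assembled complex, had a log2 fold change of -0.53 (SE 0.22, edgeR adjusted p = 0.139), or -0.22 without OAT-1746 replicate 2 and -0.91 without replicate 1. Cybc1, a chaperone of the membrane pair, had 0.12 (SE 0.16, adjusted p = 0.640), and Hvcn1, the proton channel that balances the charge the oxidase moves, 0.11 (SE 0.16, adjusted p = 0.658). With any 1 library left out these lay between 0.027 and 0.21 and between -0.039 and 0.25. Duoxa1, a maturation factor of the dual oxidases, had 1 and 4 counts in CTR, 15 and 28 in OAT-1746, 10 and 11 in anti-PD-1 and 11 to 19 in COMB, too few in CTR for a fold against CTR to be given. In COMB against OAT-1746, edgeR called 0 of the 9 partners, against 15.8% of all genes.

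Among 10 NRF2 regulators, all tested, the median log2 fold change between OAT-1746 and CTR was 0.10, with 0 called by edgeR and 3 called higher by DESeq2, when it called 17.3% of all genes in either direction (Mafk, Bach2 and Mafg, the last named after its values were seen). Nfe2l2 itself had 441 and 307 CPM in CTR, 324 and 338 in OAT-1746, 269 and 399.9 in anti-PD-1, and 256, 246 and 254 in COMB. The CTR and OAT-1746 libraries overlapped and the COMB libraries were the lowest, with a log2 fold change of -0.18 in OAT-1746 (SE 0.23, edgeR adjusted p = 0.608) and -0.57 in COMB (SE 0.21, adjusted p = 0.752) against CTR. Keap1, the adaptor that marks NRF2 for degradation, had -0.28 in OAT-1746 (SE 0.14, adjusted p = 0.203), Rbx1 of the same ubiquitin ligase -0.48 (SE 0.23, adjusted p = 0.177), and Bach1, the repressor at antioxidant response elements, 0.24 (SE 0.17, adjusted p = 0.348). With any 1 library left out, the values in OAT-1746 lay between -0.42 and 0.12 for Nfe2l2, -0.38 and -0.17 for Keap1, -0.70 and -0.29 for Rbx1, and 0.12 and 0.36 for Bach1. Mafk, a small MAF partner of NRF2 and of the BACH proteins, had 35.1 and 32.0 CPM in CTR, 61.1 and 72.8 in OAT-1746, 39.7 and 61.8 in anti-PD-1, and 27.2, 26.9 and 30.8 in COMB. The OAT-1746 libraries and anti-PD-1 replicate 2 were high, and the COMB libraries were below all others. Mafk fell by 1.24 in COMB against OAT-1746 (SE 0.19, edgeR adjusted p = 0.016), as did Bach2, a relative of Bach1, by 0.97 (SE 0.24, adjusted p = 0.0354). These were the 2 regulators called there, while 8.94% of all genes were called lower. The Mafk call was lost without OAT-1746 replicate 2 (adjusted p = 0.099), COMB replicate 2 (0.0876) or COMB replicate 3 (0.102), and with the replicate number as a block (0.205), while its log2 fold change stayed between -1.36 and -1.10. The Bach2 call was lost without either CTR replicate (0.0596 and 0.0561), OAT-1746 replicate 2 (0.235), either anti-PD-1 replicate (0.053 for each), COMB replicate 2 (0.125) or COMB replicate 3 (0.139), and with the block (0.224), with values between -1.22 and -0.70.

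Other NRF2 targets lay on the same side as the protective members. Of 22 listed, 21 were tested, and 16 were lower in each OAT-1746 library than in either CTR library, against 32.1% of all genes. Their median log2 fold change was -0.73, with 0 called by edgeR and 9 called lower by DESeq2, which called 8.15% of all genes lower. Slc7a11, the cystine carrier that feeds glutathione synthesis, had 51.1 and 39.3 CPM in CTR, 21.2 and 4.35 in OAT-1746, 12.5 and 34.9 in anti-PD-1, and 40.3, 59.5 and 60.7 in COMB. All libraries given a single agent were below CTR, and the log2 fold change in OAT-1746 was -1.82 (SE 0.65, edgeR adjusted p = 0.102), or -1.08 without OAT-1746 replicate 2 and -3.38 without replicate 1. Ftl1, the ferritin light chain, whose counts are uncertain because processed copies of the gene exist, had -1.21 (SE 0.38, edgeR adjusted p = 0.0833), or -0.67 and -2.04 without the same libraries. Gclc, the catalytic partner of Gclm, lay on the other side, at 33.5 and 40.2 CPM in CTR and 50.7 and 70.0 in OAT-1746. The log2 fold change of Gclc was 0.71 (SE 0.24, edgeR adjusted p = 0.0934; 0.47 without OAT-1746 replicate 2 and 0.92 without replicate 1), so the subunits of that enzyme had opposite signs, neither of them called. Ephx1, an epoxide hydrolase, had 0.24 (SE 0.31, adjusted p = 0.602), between 0.034 and 0.50 with any 1 library left out.

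In COMB against OAT-1746, edgeR called 5 of the 21 NRF2 targets, all higher, when 6.84% of all genes were called higher and 15.8% in either direction, and the median log2 fold change of the list was 0.69. They were Ftl1 at 1.27 (SE 0.36, adjusted p = 0.0444) and, named after their values were seen, Txn1, Prdx1, Blvra and Abcc1. Slc7a11 had 2.07 (SE 0.62, edgeR adjusted p = 0.052), between 1.35 and 3.62 with any 1 library left out. The Ftl1 call was lost without CTR replicate 1 (0.066) or 2 (0.0678), anti-PD-1 replicate 1 (0.0655) or 2 (0.0654), OAT-1746 replicate 2 (0.181), COMB replicate 2 (0.142) or COMB replicate 3 (0.1395), and with the replicate number as a block (0.227), with values between 0.75 and 2.10. Txn1 and Prdx1 also have processed copies, which makes their counts uncertain.

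The 21 other antioxidant enzymes, all tested, had a median log2 fold change of -0.53 in OAT-1746 against CTR, with 14 below CTR in both libraries (32.1% of all genes) and 0 called by edgeR or DESeq2 (9 passed 0.05 before adjustment in edgeR, as did 32.3% of all genes). Glrx, a glutaredoxin, had 85.1 and 90.1 CPM in CTR, 50.7 and 20.5 in OAT-1746, 71.9 and 109 in anti-PD-1, and 68.8, 202 and 178 in COMB. Its level in OAT-1746 was below that of every other library, and it rose by 2.07 in COMB against OAT-1746 (SE 0.51, edgeR adjusted p = 0.0345). Msrb1, a methionine sulfoxide reductase, had 275 and 213 CPM in CTR, 185 and 28.8 in OAT-1746, so that replicate 2 carried most of its log2 fold change of -1.19 (SE 0.62, edgeR adjusted p = 0.214; -0.38 without it). Catalase (Cat) and Gpx3, a secreted glutathione peroxidase, had 0.11 (SE 0.14, adjusted p = 0.598) and 0.08 (SE 0.21, adjusted p = 0.816), between 0.041 and 0.18 and between 0.0076 and 0.15 with any 1 library left out. In COMB against OAT-1746, 4 of the 21 were called, all higher (6.84% of all genes were called higher), Glrx and, named after their values were seen, Prdx2, Prdx4 and Glrx5, and the list median was 0.66. The Glrx call was lost without CTR replicate 1 (adjusted p = 0.0556) or 2 (0.0565), either anti-PD-1 replicate (0.0507 for each), OAT-1746 replicate 2 (0.184), COMB replicate 2 (0.119) or COMB replicate 3 (0.121), and with the replicate number as a block (0.222), with values between 1.57 and 2.87.

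**Figure D4:**
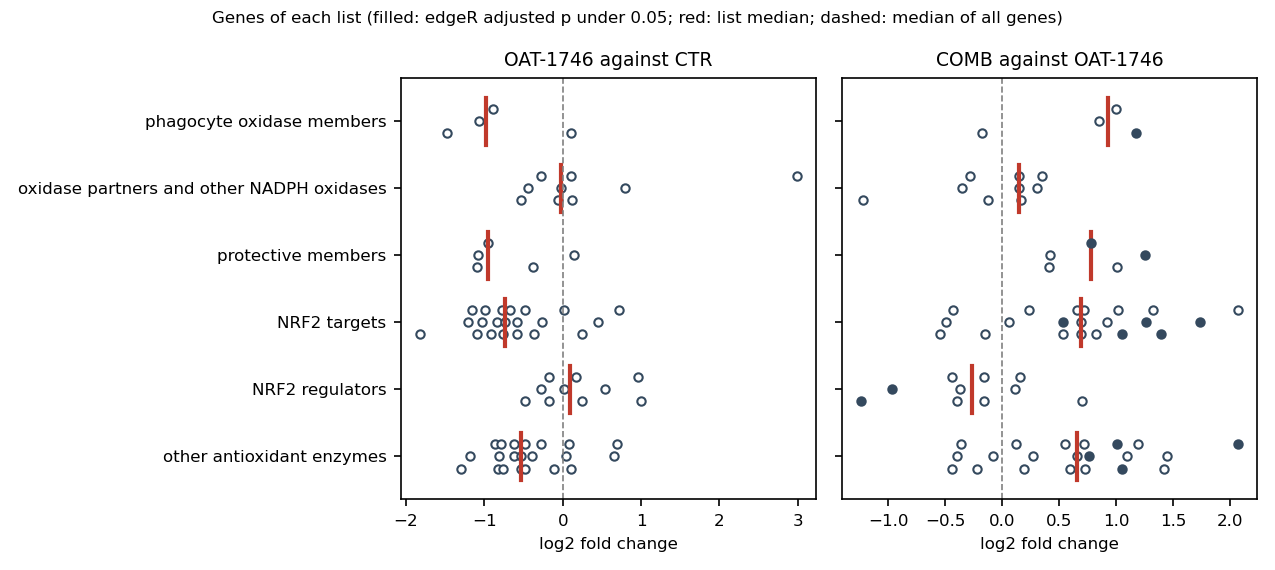
Log2 fold change (x axis) of each tested gene of 6 lists (rows) in OAT-1746 against CTR and in COMB against OAT-1746, filled where the edgeR adjusted p was under 0.05, with the list median in red and the median of all genes dashed. The medians of NRF2 targets and other antioxidant enzymes are -0.73 and -0.53 in the former and 0.69 and 0.66 in the latter, whereas those of oxidase partners and NRF2 regulators stay between -0.27 and 0.15.

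Markers of cell types differed between the same libraries, and their part in these results was not tested. Over the 6 microglia markers listed, the median difference on the log2 scale was 0.93 for OAT-1746 against CTR and -0.68 for COMB against OAT-1746. In the former, all 6 passed 0.05 before adjustment (32.3% of all genes), 0 were called by edgeR and 5 by DESeq2 (17.3% of all genes). In the latter, edgeR called 2 of the 6 lower (8.94% of all genes). One of the 6, Tmem119, chosen after its values were seen, had 1436 and 2509.6 CPM in CTR, 3342 and 4098 in OAT-1746, 2185 and 1982 in anti-PD-1, and 2795, 2401 and 2151 in COMB. Its OAT-1746 libraries were the highest of the 9. The 6 monocyte/macrophage markers, led by Plac8, summed to 1522 and 2213 CPM in CTR, 2346 and 290.2 in OAT-1746, 2561 and 2631 in anti-PD-1, and 1528, 1805 and 1775 in COMB. OAT-1746 replicate 2, lowest of all libraries in the 7 members that lay below CTR, was also lowest in these markers, with Ly6c2 at 39.7 CPM against 303 to 929 elsewhere. Across the 6, the log2 difference of OAT-1746 from CTR was negative for each, with a median of -0.65. Of them, 2 were lower in each OAT-1746 library than in CTR (32.1% of all genes), 0 were called by edgeR, 2 passed 0.05 before adjustment (32.3% of all genes) and 1 was called by DESeq2 (17.3% of all genes), shares near those of all genes. The 6 border-associated macrophage markers, led by F13a1, summed to 615 and 588 CPM in OAT-1746 and 667 to 852 CPM elsewhere. Between OAT-1746 and CTR 3 of them had a positive and 3 a negative log2 difference, with 0 called by edgeR, 4 at 0.05 before adjustment (32.3% of all genes) and 3 called by DESeq2 (17.3% of all genes). In COMB against OAT-1746, edgeR called 1 of the 6, F13a1, higher, by 0.73 on the log2 scale (SE 0.20, adjusted p = 0.0426), and 6.84% of all genes.

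The 8 immediate early genes, led by Junb, summed to 9221 and 8532 CPM in CTR, 13172 and 19792 in OAT-1746, 8635 and 10907 in anti-PD-1, and 4799, 5249 and 5357 in COMB. In COMB against OAT-1746, edgeR called 7 of the 8 lower, against 8.94% of all genes. Mitochondrial genes took 2.46% and 2.26% of counts in OAT-1746 and 0.779% to 1.61% in the other libraries. NK cell markers, 6 genes led by Gzma, summed to 14.4 to 46.7 CPM in CTR and OAT-1746 and to 41.2 to 195 CPM in the groups given the antibody. Sums over 4 neuron markers were 7.22 and 9.10 CPM in OAT-1746 and 1.39 to 3.30 in the other libraries, and edgeR called 2 of the 4 lower in COMB than in OAT-1746 (8.94% of all genes). Sums over 5 glioma and astrocyte markers, led by Slc1a3, were 138 and 199 CPM in OAT-1746 and 63.0 to 124 elsewhere, and of these genes 1 was called higher and 1 lower in COMB than in OAT-1746 (6.84% and 8.94% of all genes). Sums over neutrophil (67.7 to 217 CPM), dendritic cell (46.4 to 73.6), T cell (9.53 to 22.7), B cell (10.5 to 25.4), oligodendrocyte (129 to 258), endothelial (78.5 to 133) and erythroid markers (0.845 to 30.7) were at most 258 CPM in any library.

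**Figure D5:**
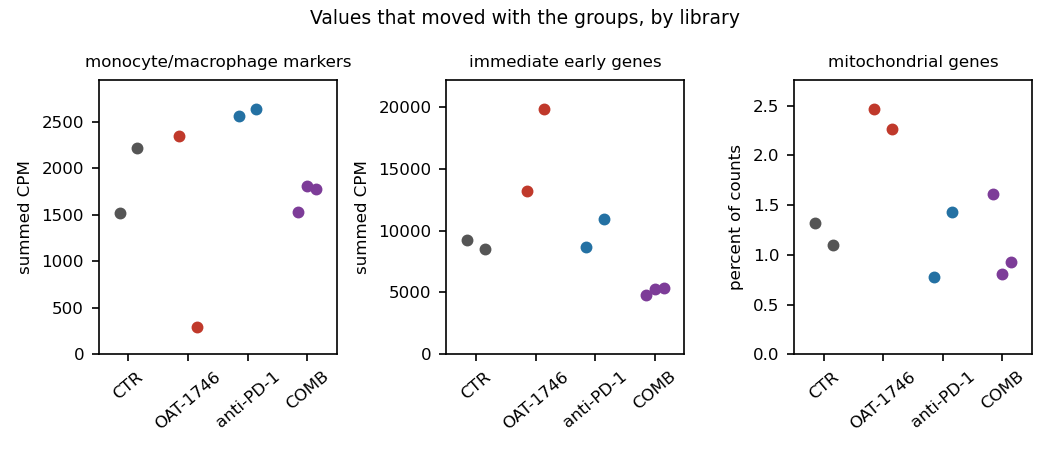
Summed CPM of 6 monocyte/macrophage markers and 8 immediate early genes, and percent of counts on mitochondrial genes, in each library by group (linear axes from 0). The OAT-1746 libraries are the highest for immediate early genes and mitochondrial genes, and OAT-1746 replicate 2 is the lowest for monocyte/macrophage markers at 290.2 CPM.

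Genes whose pattern over the 9 libraries was most like that of Cybb, the oxidase member with the largest SD of log2 CPM, were Axl, Mmp14 and Nlrc4, with root mean square differences of centred log2 CPM of 0.13, 0.13 and 0.17 where the median gene had 0.85. For Srxn1, the protective member with the largest SD, they were Mcemp1, Tmem126a and Mvb12a, at 0.13, 0.14 and 0.14 where the median gene had 0.72.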

How the data were processed

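The authors used Trimmomatic for trimming, STAR for alignment to mm10, Picard for duplicates and HTSeq for counting pairs on the reverse strand. The values deposited by the authors are raw counts, with no normalization, for 9 libraries in 4 groups. Identifiers were matched to GENCODE M21 (53620 of 53801 genes), and the 21890 protein-coding genes were filtered with filterByExpr (minimum count 10), which left 12538. edgeR 4.0.16 in R 4.3.3 applied TMM and its quasi-likelihood fit, with 1 mean per group (common biological coefficient of variation 0.214). P-values were adjusted by the Benjamini-Hochberg method over all genes tested and called under 0.05. DESeq2 1.42.0, limma 3.58.1 voom with sample quality weights, other scalings and filters, the replicate number as a block, and leaving out each replicate were the alternatives. The steps were tested on simulated data. Log2 CPM used a prior count of 2. Members and lists were chosen with earlier results of these data known. Beside the members, Duoxa1, Nfe2l2, Keap1 and Bach1 were named, and of each companion list the genes with the 2 largest positive and 2 largest negative log2 fold changes in OAT-1746 against CTR, with a mean of at least 5 CPM. Gclm and Txnrd1 overlap other genes on their strand (Gm6061 and Eid3), which had at most 4 and 16 counts.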

Additional observations from a re-analysis of the deposited data

Results flagged for a closer look

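Mafk was singled out because its response to OAT-1746 differed between mice with and without the antibody. The interaction was -1.84 on the log2 scale (SE 0.29), with an adjusted p of 0.042 in edgeR's quasi-likelihood test and 1.8e-05 in DESeq2. OAT-1746 against CTR gave 1.00 (edgeR adjusted p = 0.061) and COMB against anti-PD-1 -0.84 (edgeR adjusted p = 0.424). Over the alternatives, which for this gene were added after the data were seen, the interaction lay between -2.12 and -1.48. Its adjusted p passed 0.05 without CTR replicate 1 (0.218), CTR replicate 2 (0.168), OAT-1746 replicate 2 (0.0709), anti-PD-1 replicate 2 (0.165), COMB replicate 2 (0.145) or COMB replicate 3 (0.183), under the replicate block (0.347), and narrowly when genes of every type were tested (0.05003). Immediate early genes moved with the same groups, and their part in this result was not tested.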

How the results depend on the processing

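Signs of the members in OAT-1746 against CTR were kept under all alternatives except for Nqo1, and in COMB against OAT-1746 for all 9. Over all values of single genes under an alternative, 1327 of 1476 kept sign and side of the threshold, 61 passed it newly, 57 no longer passed it and 31 turned sign. Alternatives for the companion genes, and members called with only the groups compared, were added after the data were seen. Where a group was left with 1 library, that library is assumed to vary like the other groups. Beyond what fewer libraries account for, the cause was not tested.

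DESeq2 called 1996 genes and 5 members in OAT-1746 against CTR, 14 genes in anti-PD-1 against CTR, 35 in COMB against CTR, 3062 and 5 members in COMB against OAT-1746, 47 in COMB against anti-PD-1, 1025 and 1 member in the interaction, and 2121 and 3 members in the test of any difference. With no filter on low counts the numbers of genes were 587 (1 member) in OAT-1746 against CTR, 2 in COMB against CTR, 2 in COMB against anti-PD-1, 146 in the interaction and 361 in the test of any difference. limma voom called 2 genes in COMB against CTR, 35 in COMB against anti-PD-1, 428 in the interaction and 396 in the test of any difference, and 5 members in COMB against OAT-1746. It turned the sign of small values in COMB against CTR (Ncf4 0.028, Srxn1 0.016) and in COMB against anti-PD-1 (Cybb 0.098, Hmox1 0.20, Txnrd1 0.019). Library size alone gave 24 genes in the interaction and -0.033 for Ncf1, and moved the median of all genes there from -0.02 to -0.11. Genes of every type gave 18 in the interaction. With only the groups compared there were 5 genes in COMB against CTR, 30 and 0 members in COMB against OAT-1746, and 2 in COMB against anti-PD-1.

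With the replicate number as a block, 2 genes and 0 members were called in COMB against OAT-1746, 0 genes in the interaction and 0 in the test of any difference. Same-numbered replicates of different groups, 12 pairs in all, had residual correlations between -0.35 and 0.10. In groups of 2 libraries the deviations from the group mean mirror each other. Pairs between such groups therefore repeat the same value and are not separate checks. These values gave no clear sign of pairing and cannot exclude it.

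Leaving out each library in turn gave 0 to 3617 genes and 0 to 5 members in OAT-1746 against CTR, 5 to 4033 genes and 0 to 6 members in COMB against OAT-1746, 0 to 52 genes in COMB against anti-PD-1, 0 to 2734 genes and 0 to 5 members in the interaction, and 0 to 2381 genes and 0 to 5 members in the test of any difference. Without OAT-1746 replicate 1 the numbers were at the upper end. The oxidase medians ran from -1.65 to -0.52 in OAT-1746 against CTR, 0.37 to 1.76 in COMB against OAT-1746 and 0.74 to 1.86 in the interaction. The protective medians ran from -1.19 to -0.49, 0.43 to 1.03 and 0.62 to 1.13 in these, and from -0.20 to 0.061 in anti-PD-1 against CTR and -0.017 to 0.30 in COMB against anti-PD-1. Signs turned in OAT-1746 against CTR for Nqo1 (-0.25 to 0.68), Nfe2l2 (-0.42 to 0.12) and Hvcn1 (-0.039 to 0.25). In anti-PD-1 against CTR they turned for Cyba (-0.0074 to 0.076), Hmox1 (-0.19 to 0.51), Nqo1 (-0.31 to 0.63), Txnrd1 (-0.24 to 0.036) and Srxn1 (-0.41 to 0.062). In COMB against CTR they turned for Ncf4 (-0.20 to 0.083), Hmox1 (-0.016 to 0.44), Gclm (-0.017 to 0.089) and Srxn1 (-0.28 to 0.16). The same held in COMB against OAT-1746 for Duoxa1 (-0.74 to 0.16) and Hvcn1 (-0.27 to 0.046), in COMB against anti-PD-1 for Cybb (-0.50 to 0.50), Hmox1 (-0.33 to 0.37) and Txnrd1 (-0.20 to 0.072), and in the interaction for Ncf1 (-0.068 to 0.19) and Nqo1 (-0.21 to 0.75). At 5 to 13 counts per library, depth limits what can be said of Nqo1.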
